A study of Drosophila melanogaster with 3 samples.

Results

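Adf1, Sox14, px, CenG1A, Art3, CG14100, CG18549, CG11050, CG3726 and CG13323 are the genes whose transcription start site (TSS) was the nearest to some of the strongest binding peaks of the protein Row in the Drosophila melanogaster embryo. They are 10 of the 13968 protein-coding genes on the 7 chromosome arms. The genes were chosen by the signal value of those peaks in the conservative peak list of the study, and 10 of the 20 strongest peaks of that list belong to them. The signal value is the authors' own enrichment score of a peak. The signals and ranks of these peaks therefore describe the choice and are given with no test. The genes at the other 10 of these peaks, such as mRpL41 at rank 1 and Chro at rank 4, are named only for comparison.

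The material was whole embryos aged 0 to 24 h of a transgenic row-GFP strain, which expresses Row fused to enhanced green fluorescent protein (eGFP). Chromatin was sheared by sonication into fragments of 200 to 800 bp and precipitated before sequencing (ChIP-seq). The description in the labels gives an antibody against GFP, while their antibody field reads row. There was 1 group of 3 biological replicates, no second genotype, treatment or stage, and therefore no comparison between conditions. An embryo holds many cell types and a collection of 0 to 24 h holds many stages, so a peak does not say in which cells or at which stage the protein was bound. The deposited data were peak lists. A thresholded list keeps peaks that pass a limit on the irreproducible discovery rate (IDR), an estimate of how many peaks fail to repeat. A ranked list is the longer list before that step. The conservative list, called the main list here, kept peaks that repeated between replicates 1 and 2 at a limit of 0.01, while its signal values come from all 3 replicates together. Each replicate also had lists of its own. Read depth is unknown. The labels do not say whether the untagged row gene was still present, and an untagged control precipitation was not analysed here.

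The row gene, short for relative of woc, encodes a protein with zinc fingers. It works in a chromatin complex with a similar protein, WOC, and with HP1c, a member of the heterochromatin protein 1 family. The complex is known for sitting at the promoters of active genes in euchromatin. A peak is a stretch of the genome with more reads in the precipitate than in the control, and its summit is the position where that excess was highest.

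**Figure D1:**
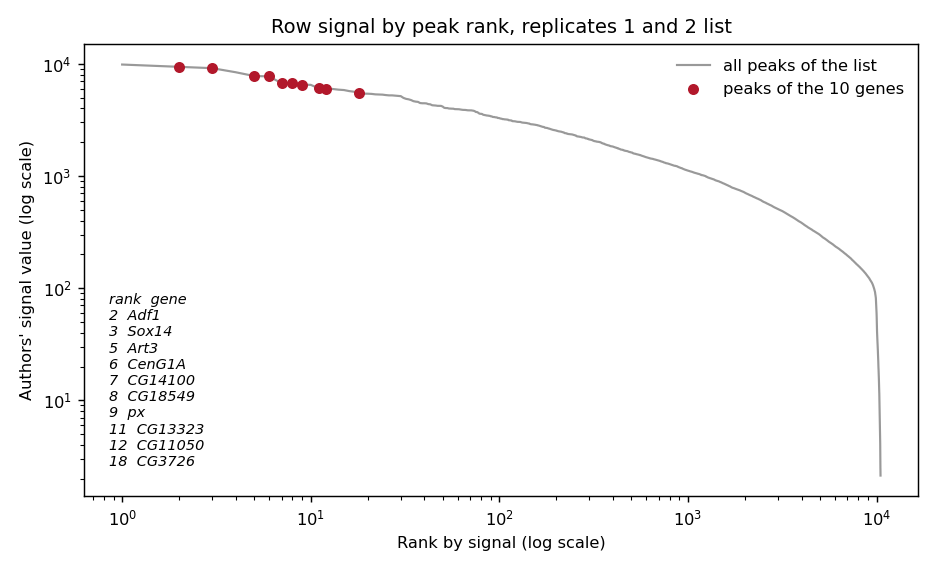
Authors' signal value of each of the 10483 peaks of the main list against its rank, both on log scales. The line is the whole list and the red points are the peaks of the 10 genes, which lie between rank 2 (Adf1, signal 9398) and rank 18 (CG3726, signal 5443).

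The DNA under 6 of the summits is printed first, those with the longest runs of A and T among the 10 genes. Base composition at the summit was not used to choose the 10 genes. Each sequence is 201 bases of RefSeq's copy of the fly genome (release 6, the assembly of dm6), centred on the summit, which is base 101, and read on the strand of the gene. Capitals mark the longest run of A and T without a G or C, or the first of them where several are as long. CG11050 has 3 such runs and Art3 has 2, and each of the other genes has 1. The windows were chr2L:13835359-13835559 on the plus strand for CenG1A, chr3R:15229431-15229631 on the minus strand for Art3 and chr3L:19590515-19590715 on the minus strand for CG14100. They were chr3R:12449066-12449266 on the plus strand for CG18549, chr2L:6612609-6612809 on the plus strand for CG11050 and chrX:5918812-5919012 on the plus strand for CG3726. The summits of the first 4 lie just upstream of a TSS and those of the last 2 lie in introns. The window of CG14100 also holds the TSS of the gene, near its 3′ end.
CenG1A: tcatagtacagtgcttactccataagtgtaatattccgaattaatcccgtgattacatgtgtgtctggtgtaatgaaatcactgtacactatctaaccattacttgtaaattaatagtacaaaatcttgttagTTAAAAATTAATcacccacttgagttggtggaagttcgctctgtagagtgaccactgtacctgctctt
Art3: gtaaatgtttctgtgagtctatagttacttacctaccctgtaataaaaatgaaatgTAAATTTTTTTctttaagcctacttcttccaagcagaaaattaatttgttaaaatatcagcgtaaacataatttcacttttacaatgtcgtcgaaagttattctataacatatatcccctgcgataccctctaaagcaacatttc
CG14100: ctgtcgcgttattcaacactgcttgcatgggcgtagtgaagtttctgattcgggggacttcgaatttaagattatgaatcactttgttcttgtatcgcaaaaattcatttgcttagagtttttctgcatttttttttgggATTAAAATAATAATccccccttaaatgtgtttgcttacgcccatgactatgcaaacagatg
CG18549: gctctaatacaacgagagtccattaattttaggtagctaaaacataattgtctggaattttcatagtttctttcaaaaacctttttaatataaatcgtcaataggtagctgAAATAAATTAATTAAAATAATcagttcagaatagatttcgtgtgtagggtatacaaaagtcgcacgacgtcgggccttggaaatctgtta
CG11050: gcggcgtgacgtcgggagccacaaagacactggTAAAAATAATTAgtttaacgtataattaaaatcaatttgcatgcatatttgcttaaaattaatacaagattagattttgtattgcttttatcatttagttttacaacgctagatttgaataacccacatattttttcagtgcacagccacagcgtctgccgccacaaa
CG3726: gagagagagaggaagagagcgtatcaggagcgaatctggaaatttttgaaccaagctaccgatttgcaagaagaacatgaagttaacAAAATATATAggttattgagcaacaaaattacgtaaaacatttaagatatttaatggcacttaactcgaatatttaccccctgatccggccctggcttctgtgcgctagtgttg

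In all 6, the central 51 bases had a higher share of A and T than the outermost 50 bases of each side. The longest run of A and T was 21 bases in CG18549, 14 in CG14100, 12 in CenG1A and CG11050, 11 in Art3 and 10 in CG3726. It was shorter in the genes not printed, with 9 in px and CG13323, 8 in Adf1 and 7 in Sox14. The median of all 10 genes was 10.5, below the 12 of all peaks, so long runs are not typical of them. The marked runs do not show this centre: only that of CG3726 lay wholly within the central 51 bases, and that of CG18549 partly. Those of CenG1A, Art3 and CG14100 lay outside it, and that of CG11050 lay in the outermost 50 bases. In Art3 and CG11050 the further runs of the same length are not marked. The shares of A and T are given after the positions of the peaks.

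CenG1A, Art3, CG14100 and CG18549 carried their strongest peak at a promoter, defined here as the 500 bp on each side of a TSS. CenG1A (FBgn0028509, chromosome arm 2L, plus strand) encodes centaurin gamma 1A, an ArfGAP protein that switches off small Arf GTPases in membrane traffic. Its peak at chr2L:13834985-13835766 had a signal of 7715, rank 6 of the 10483 peaks of the main list, and its summit lay 105 bp upstream of the TSS of CenG1A-RB. In the replicates' own lists the peak took ranks 4, 5 and 7 in the order of replicates 1 to 3, a mean rank of 5.33 ± 1.53 (SD, n = 3). Of the other 2 start sites of CenG1A, that of CenG1A-RC had a weak summit of signal 265 and that of CenG1A-RA had none.

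Art3 (FBgn0038306, 3R, minus strand) encodes a protein arginine methyltransferase, an enzyme that adds methyl groups to arginine side chains. Its peak at chr3R:15229302-15229766 had a signal of 7780, rank 5, with the summit 123 bp upstream of the only TSS. It ranked 10, 7 and 4 in replicates 1, 2 and 3, a mean of 7.0 ± 3.0 (SD, n = 3).

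CG14100 (FBgn0036889, 3L, minus strand) is named in the annotation only by its number. Its peak at chr3L:19590399-19590850 had a signal of 6714, rank 7, and the summit was 91 bp upstream of the TSS, the shortest distance among the 10 genes. The peak ranked 22, 8 and 6 in the replicates, a mean of 12 ± 8.72 (SD, n = 3), and replicate 1 placed it further down than both other lists.

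CG18549 (FBgn0038053, 3R, plus strand) has the RefSeq synonym MFSD11 and so a name of the major facilitator family of membrane transporters. Its peak at chr3R:12448894-12449405 had a signal of 6694, rank 8, with the summit 130 bp upstream of the TSS. It ranked 5, 14 and 11 in the replicates, a mean of 10 ± 4.58 (SD, n = 3). The next strongest summit within 15 kb of it had a signal of 457, near Desat1, so the peak had 14.7 times that signal.

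Sox14 (FBgn0005612, 2R, plus strand) encodes a transcription factor with an HMG box, which is induced by the steroid hormone ecdysone and is needed for the pruning of dendrites. Its peak at chr2R:23978284-23978824 had a signal of 9134, rank 3, and the summit lay 243 bp upstream of the TSS of Sox14-RC, the most upstream of its 3 start sites. No summit was within 500 bp of the TSS of Sox14-RA or Sox14-RB. The ranks of 2, 3 and 3 in replicates 1, 2 and 3 gave a mean of 2.67 ± 0.577 (SD, n = 3), the smallest SD among the 10 genes.

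px (plexus, FBgn0003175, 2R, minus strand) encodes a nuclear protein that limits the formation of wing veins. The gene is 67769 bp long, and its strongest peak was at an internal promoter, not at the start of the gene. The peak at chr2R:22514048-22514530 had a signal of 6511, rank 9, with the summit 208 bp upstream of the TSS of px-RD and inside an intron of the other 5 transcripts. At the TSS shared by px-RA, px-RE, px-RF and px-RG the summit had a signal of 251, and the TSS of px-RB had none. The internal promoter thus had 25.9 times the signal of the TSS used by 4 of the 6 transcripts. The peak ranked 6, 23 and 9 in the replicates, a mean of 12.7 ± 9.07 (SD, n = 3), with replicate 2 placing it furthest down.

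These 6 summits all lay upstream of the TSS they were nearest to, between 243 and 91 bp, with a median of 126.5 bp upstream. Such a position was common: 84.4% of the 4541 promoter summits of the list were upstream of the nearest TSS, and the median over all of them was 94.0 bp upstream. Counting weaker summits too, 8 of the 10 genes had a promoter summit in the main list, where 36.4% of all protein-coding genes had one. Since the genes were chosen for peaks of this list, nothing is read from that count. In the replicates' own lists the count was 9, 8 and 8 of 10, beside 40.3%, 32.0% and 32.8% of all protein-coding genes in replicates 1, 2 and 3. CG13323 had no promoter summit in any of these lists, and CG3726 had one only in replicate 1.

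Art3 and CenG1A shared their summits with a divergent neighbour that encodes a protein of the small subunit of the mitochondrial ribosome. The summit of Art3 lay 134 and 171 bp upstream of the 2 start sites of mRpS10, which is transcribed from the other strand across a gap of 257 bp. The summit of CenG1A lay 387 bp upstream of the TSS of mRpS23, across a gap of 492 bp. In both cases the summit was between the start sites, and it was nearer to the gene counted here by 11 bp for Art3 and by 282 bp for CenG1A. The strongest peak of the whole list, near mRpL41, is at a gene for a protein of the large subunit of the same ribosome. The genes of this ribosome were not counted as a set here, so nothing is read from these names. Of the promoter summits of the list, 35.6% were within 500 bp of start sites of 2 or more genes, so 2 shared summits among 6 are close to the background.

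Adf1, CG11050 and CG3726 carried the strongest peak inside an intron. Adf1 (FBgn0284249, 2R, plus strand) encodes a transcription factor with a MADF domain, first known as an activator of the alcohol dehydrogenase gene Adh. Its peak at chr2R:6662759-6663690 had a signal of 9398, rank 2, and the summit lay 802 bp downstream of the nearest TSS, in an intron of all 4 transcripts. The interval was 932 bp wide and held a further summit of signal 315 at 1077 bp. The promoter of Adf1, shared with Dpit47, had a summit of signal 413, so the intron had 22.8 times the signal of the promoter. The peak ranked 12, 2 and 1 in replicates 1, 2 and 3, a mean of 5.0 ± 6.08 (SD, n = 3), and was the strongest of the whole list of replicate 3.

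CG11050 (FBgn0031836, 2L, plus strand) and CG3726 (FBgn0029824, X, plus strand) are named only by number. The peak of CG11050 at chr2L:6612457-6613005 had a signal of 5980, rank 12, and its summit lay 1022 bp downstream of the nearest TSS in an intron of all 3 transcripts. Its promoters had summits of signal 442 and 164, so the intron had 13.5 times the signal of the stronger promoter. The peak ranked 11, 17 and 17 in the replicates, a mean of 15 ± 3.46 (SD, n = 3). The peak of CG3726 at chrX:5918691-5919164 had a signal of 5443, rank 18, and its summit lay 1752 bp downstream of the nearest TSS in an intron of both transcripts. It ranked 32, 9 and 40, a mean of 27.0 ± 16.1 (SD, n = 3), the largest SD of the 10. No promoter summit of CG3726 was in the main list.

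CG13323 (FBgn0033788, 2R, minus strand) was the nearest gene to a peak that lay in no gene. The peak at chr2R:13035096-13035570 had a signal of 6046, rank 11, and its summit was 11915 bp from the TSS and 9354 bp from the near end of CG13323. The intergenic stretch of 36784 bp is bounded on the other side by Su(z)2, whose end was 27430 bp from the summit. Su(z)2 and its neighbour Psc encode Polycomb group proteins, which keep genes silent through chromatin. The peak nearest to Psc ranked 16 with a signal of 5704 and lay 4212 bp upstream of that gene. The nearest TSS of any annotated feature to the CG13323 summit, 6030 bp away, was that of an INE-1 transposable element. The name CG13323 is therefore only that of the nearest start site, and no summit was at the promoter of the gene. The peak ranked 9, 12 and 21 in the replicates, a mean of 14 ± 6.24 (SD, n = 3).

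Beyond their strongest peak, the genes had 64 further summits in their bodies or within 15 kb. All were much weaker, which follows largely from the choice of strong peaks. Their median signal was 265.5, against 280.1 over the main list, and their highest was 2399 at the promoter of Dpp10 near CG11050. Counted with the strongest peaks there were 74 summits, of which 32 lay in gene bodies and 11 at the genes' own promoters. The count ran from 4 at CG14100, CG11050 and CG13323 to 16 at px. The median was 6 a gene, where the median over all protein-coding genes was 4, but the 10 genes were also longer, with a median length of 6242 bp against 2164.5 bp.

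px held 14 of the 32 summits in gene bodies, CG3726 held 6 and CenG1A 4. Adf1 and CG18549 held 3 each and CG11050 held 2. Sox14, Art3, CG14100 and CG13323 held none. Per kb of gene the order was different, since px and CenG1A are long. The values were 0.515 at Adf1, 0.425 at CG18549 and 0.327 at CG11050. They were 0.242 at CG3726, 0.207 at px and 0.0633 at CenG1A. The median count in the body was 2.5 for the chosen genes and 0 for all protein-coding genes, which were shorter. The summits of px other than its strongest peak had signals of 120 to 685 in the body, and 8 of its 16 summits were in the lists of all 3 replicates. In CG3726 the other 5 summits of the body had signals of 119 to 293. The 3 in the body of CG18549 had signals of 179, 112 and 16 and were nearest to the TSS of CG5509, and those of 112 and 16 were in no replicate's list.

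Of the 33 further summits outside the bodies and away from the genes' own promoters, 27 lay at the promoter of another protein-coding gene. They were 7 around Adf1, 4 each around Sox14, CenG1A and Art3, 3 around CG14100, 2 each around CG18549 and CG3726, and 1 near CG11050. Over the main list, 4541 of the 10483 peaks had their summit at a promoter of a protein-coding gene. That count keeps summits in gene bodies, which were left out of the 33. The shares are therefore not directly comparable, and nothing is read from the 27. The 4 around Sox14 had signals of 518 to 1122 and lay at or, CG10904, PPP1R15 and CG3860. The 4 around Art3 had signals of 266 to 1192, the highest at Hsc70-4. Around px and CG13323 no further summit lay at the promoter of another gene, apart from the px promoter summit that CG11362 shares.

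That each strongest peak stood above its surroundings follows largely from the choice of strong peaks. How far it did so differed among the genes. With distance taken from the peak's own summit, the ratio of its signal to that of the next strongest summit within 15 kb was 2.49 for CG11050, where that summit was at Dpp10, and 37.8 for CG13323, where it had a signal of 160. It was 18.5 for CG3726, 14.7 for CG18549, 11.3 for px and 10.4 for Adf1. It lay between 6.53 and 8.31 for Art3, CenG1A, Sox14 and CG14100. The next strongest summit of these genes lay at the promoter of another gene, as did that of Adf1, CG18549 and CG11050. With distance taken from the gene body, as in the counts above, the ratio was 9.52 for CG13323, where a summit of signal 635 near CG13324 then came into the window. It was 9.50 for px and 4.95 for CenG1A, and it was the same for the other 7 genes.

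**Figure D2:**
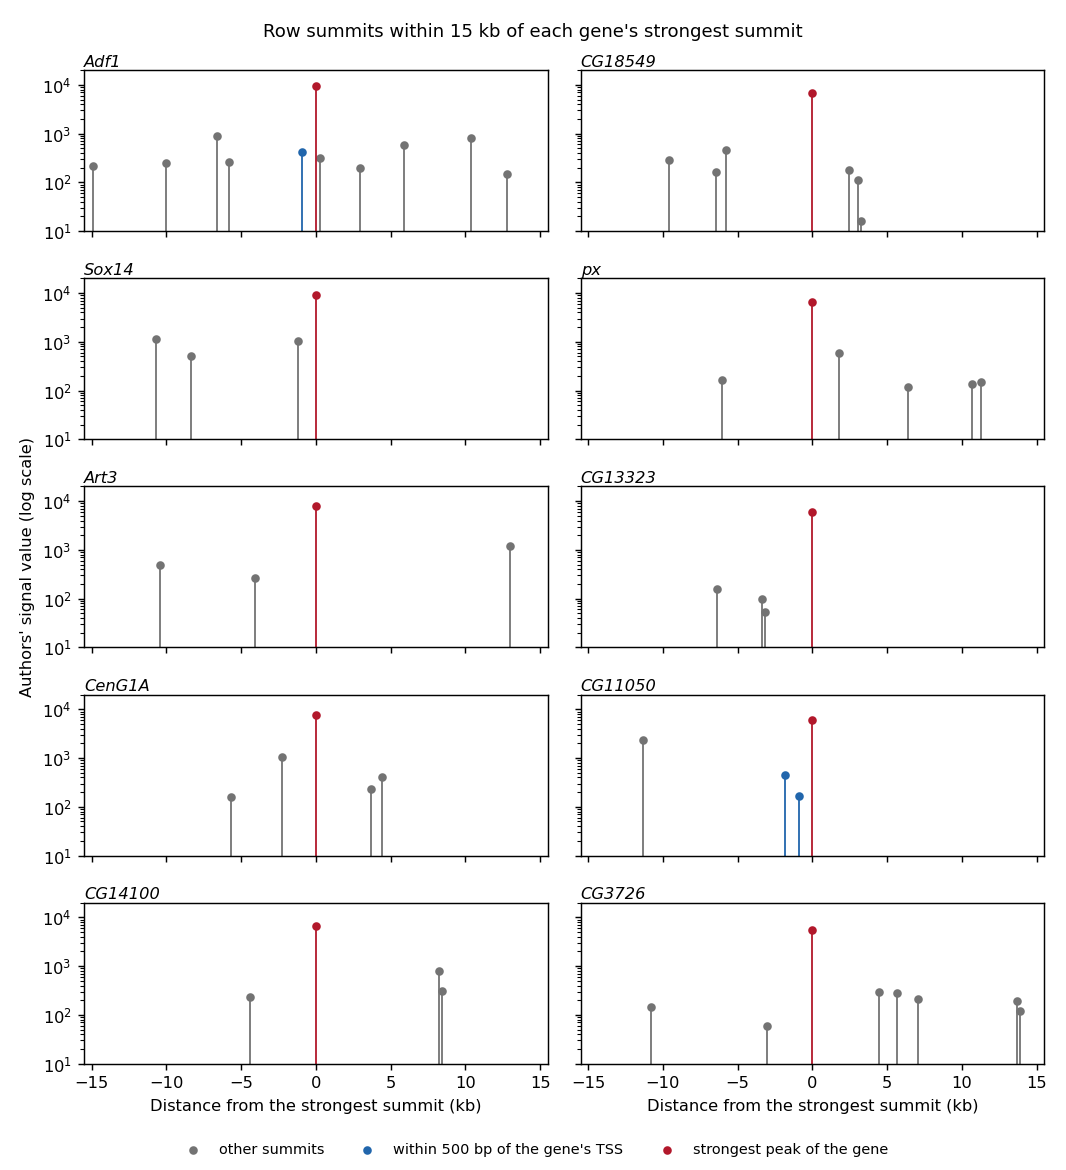
Authors' signal value (log scale) of every summit within 15 kb of the strongest summit of each of the 10 genes, against the distance in kb along the chromosome. Red is the strongest peak of the gene, blue other summits within 500 bp of its TSS and grey all others. In each panel the red point is the highest, by 2.49 times at CG11050 and 37.8 times at CG13323. That it is the highest follows largely from the choice of strong peaks.

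All 10 strongest peaks were found again in the thresholded lists of replicates 1, 2 and 3, where 62.1% of the main list was. The choice of strong peaks used data of the same replicates, so the count is a description. Of the 64 further summits, 38 were listed in all 3 replicates and 4 in none. The median rank of the 10 peaks was 9.5 in replicate 1, 8.5 in replicate 2 and 8.0 in replicate 3, of 10959, 8564 and 7608 peaks. In replicate 1, 8 of the 10 were among the 20 strongest, in replicate 2 there were 9 and in replicate 3 again 8. The exceptions were CG14100 at rank 22 and CG3726 at rank 32 in replicate 1, px at rank 23 in replicate 2, and CG13323 at rank 21 and CG3726 at rank 40 in replicate 3.

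The signal values behind these ranks are on a scale of each list and cannot be set against each other between replicates. The lists also differ in length, so a difference in rank is not read as a change in binding. Within replicate 1 they ran from 1625 at CG3726 to 2642 at Sox14. Within replicate 2 they ran from 2031 at px to 3666 at Adf1. Within replicate 3 they ran from 1381 at CG3726 to 3568 at Adf1. The order of the genes was thus not the same in the replicates: Sox14 led in replicate 1 and Adf1 in replicates 2 and 3. By mean rank Sox14 came first, followed by Adf1, CenG1A and Art3, whose ranks overlapped. CG18549, CG14100, px, CG13323 and CG11050 had overlapping ranks too, and only CG3726, last by mean rank, had ranks beyond 30.

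**Figure D3:**
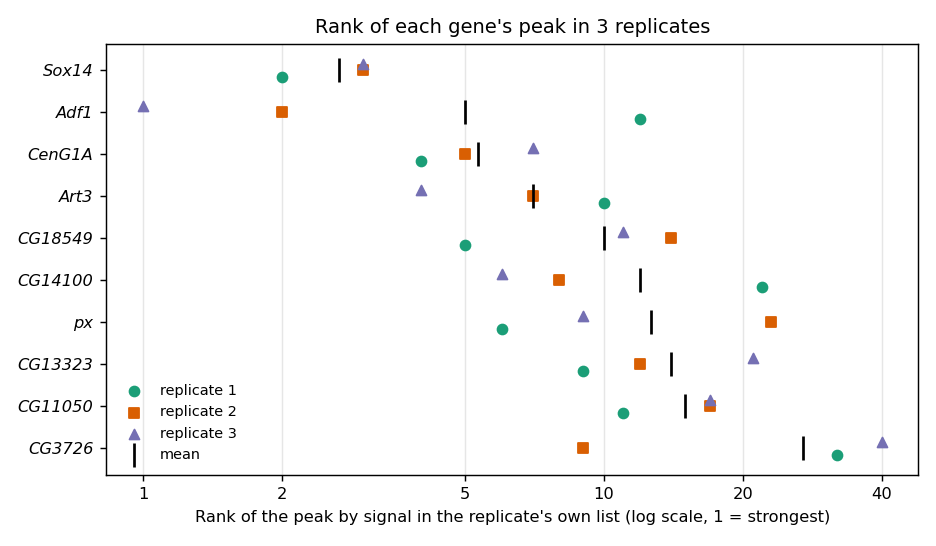
Rank by signal of the strongest peak of each of the 10 genes in the thresholded list of replicates 1, 2 and 3 (log scale, 1 is the strongest), with the mean as a bar. Sox14 lies between ranks 2 and 3, while Adf1 runs from 1 to 12 and CG3726 from 9 to 40.

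The positions of the summits lay close together. The summits of the 3 replicates lay within 2 bp of each other for Sox14, CenG1A and CG18549, within 4 bp for Art3 and CG14100, and within 5 bp for CG11050. They were 8 bp apart for CG13323, 10 bp for CG3726, 12 bp for px and 17 bp for Adf1. The median distance was 4.5 bp. Over the 6507 peaks found in all replicates the median was 31.0 bp, over the 500 strongest peaks 14 bp, and over the 10 other peaks among the strongest 20 it was 16 bp. The median of the 10 genes was thus the lowest of these, and the difference was not tested, because the genes were chosen with these data known.

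**Figure D4:**
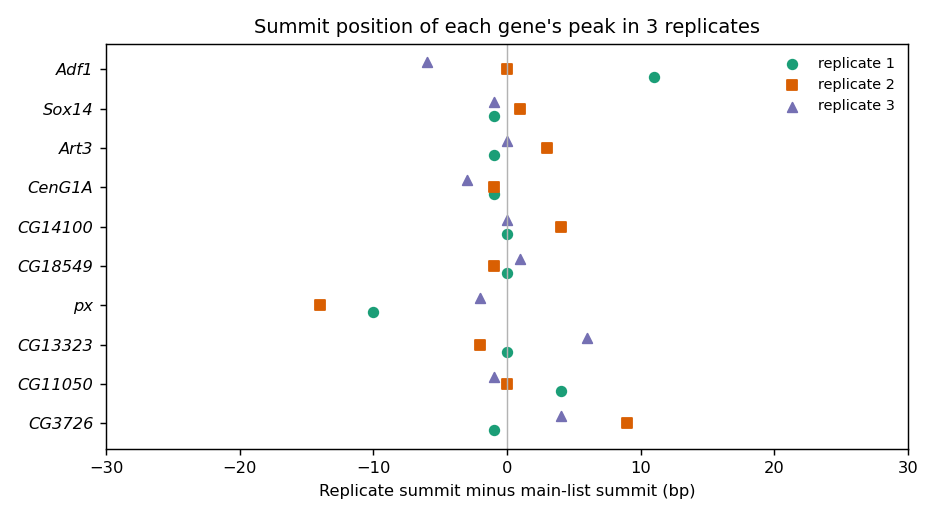
Position in bp of the summit in each of the 3 replicates relative to the summit in the main list, for the strongest peak of each of the 10 genes. All points lie between 14 bp to the left (px, replicate 2) and 11 bp to the right (Adf1, replicate 1).

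The sequence under the summits was richer in A and T in the middle than at the sides. In the central 51 bp the share of A and T ran from 66.7% at Sox14 to 80.4% at CG18549, with a median of 74.5%. In the outermost 50 bp of each side of the 201-bp window the median was 53.0%, with 38.0% at Adf1 and 67.0% at Art3 as the extremes. The centre was above the outer part in all 10 genes. Over the whole main list the centre had a median of 68.6% and the outer part 63.0%, and the centre was above the outer part in 6756 of 10483 peaks. The 500 strongest peaks had 72.5% and 62.0%, with 420 of 500 in that direction, and the 10 other peaks among the strongest 20 had 68.6% and 58.0%, with 8 of 10. At protein-coding start sites the order was the opposite, with 54.9% in the centre and 59.0% in the outer part.

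The step was largest at Adf1, from 72.5% in the centre to 38.0% outside, and at CG11050, from 78.4% to 53.0%. It was smallest at Art3, from 72.5% to 67.0%. The intronic and intergenic summits of Adf1, CG11050, CG3726 and CG13323 had 72.5 to 78.4% in the centre, and the 6 promoter summits had 66.7 to 80.4%, so these ranges overlap. Over the whole 201 bp the 10 windows had a median of 62.7%, below the 65.7% of all peaks and the 67.2% of the 500 strongest. The longest run of A and T was 7 bases at Sox14 and 21 at CG18549, with a median of 10.5. It was 12 over all peaks and 14 over the 500 strongest.

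**Figure D5:**
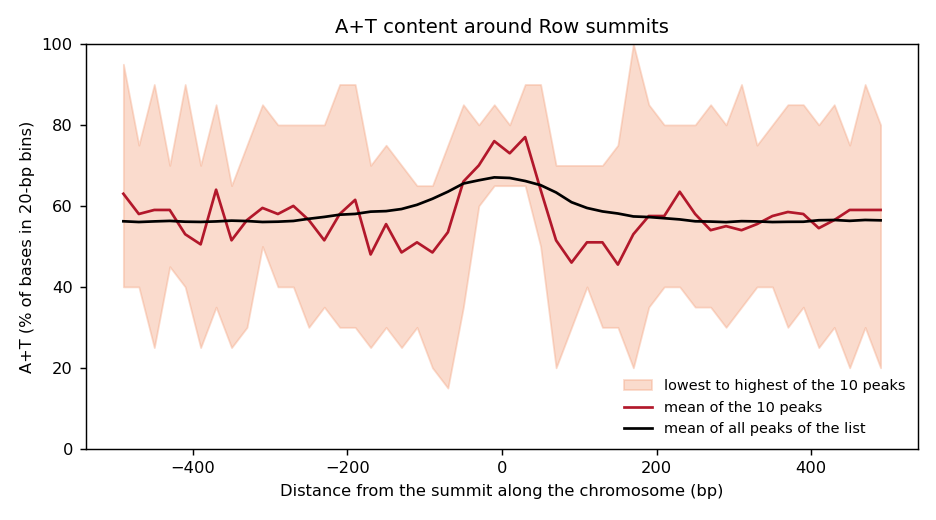
Share of A and T in bins of 20 bp up to 500 bp from the summit, as the mean of the strongest peaks of the 10 genes (red), their lowest to highest value (shaded) and the mean of all 10483 peaks (black). The mean of the 10 peaks is 76.0% in the bin just left of the summit and 46.0% in the bin centred 90 bp to the right, where the mean of all peaks is 60.9%.

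Known motifs were searched for in the same windows on both strands. TATCGATA, the DNA replication-related element, was in none of the 10 windows and in 5.08% of all peaks and 6.44% of windows of the same length at protein-coding start sites. GGTCACAC, the core of the promoter motif 1, and the E-boxes CAGCTG and CACGTG were also in none, with 3.05%, 7.77% and 1.86% of all peaks and 5.68%, 13.4% and 2.80% of start sites. That a window does not hold these letters says nothing about the factors that bind them. CGATA, which is part of TATCGATA, was in the windows of Art3 and CG14100, in 30.4% of all peaks and in 37.1% of start sites.

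GAGAG, the GAGA element, was in 4 of the 10 windows, those of px, CG18549, CG3726 and CG13323, in 19.7% of all peaks and in 25% of start sites. In the printed sequence of CG3726 it is the repeat at the 5′ end, away from the summit. None of the matches in these 4 windows lay wholly within 50 bp of the summit. TATAAA, the TATA box, was in the windows of Adf1 and CG18549 and in 37.9% of all peaks and 26.9% of start sites. TCAGT, the initiator, was in those of Sox14, CG18549 and CG11050, in 34.5% of all peaks and 43.4% of start sites. AAAAAA was in those of Adf1, Art3, CG14100 and CG11050, in 47.6% of all peaks and 36.0% of start sites. No motif searched was common to all 10 windows.

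The relatives of the genes were looked up in short lists of their families, which need not hold every member. The counts below are of the listed genes only. Of the other Sox genes, 2 of 7 had a promoter summit, Sox100B with a signal of 666 and Sox102F with 627. Of the other arginine methyltransferase genes it was 4 of 8, Art8 with 666, Art1 with 637 from a summit nearer to Mcm5, Art4 with 493 and Art7 with 388. Of the other ArfGAP genes it was 5 of 6, led by ArfGAP3 with 981 and CenB1A with 723 from a summit nearer to Rassf. The highest of these signals, 981, compares with 7715 at CenG1A, 7780 at Art3 and 9134 at Sox14. CenG1A, Art3 and Sox14 were chosen for the strength of their peaks, so this gap follows from the choice and nothing is read from it.

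Of the other MADF genes in the list, 5 of 8 had a promoter summit, and brwl had a signal of 4217 at rank 47. The promoter of Adf1 itself, with 413 from a summit nearer to Dpit47, was below that of brwl. It was also below hng3 with 1115 and stwl with 907 from a summit nearer to CG3919. Of the other wing vein genes it was 2 of 10, net with 2234 and aos with 1063, and bs, rho, vn, kni, knrl, ara, caup and emc had none. Dl was not matched to the annotation and was left out. Of the genes of the Row complex and its partners it was 4 of 6: row itself with 3931 at rank 61, HP1b with 760, woc with 411 and Ubqn with 251 from a summit nearer to dome, while HP1c and Dsp1 had none. The lists are small and were chosen with earlier results known, so these counts are read only beside the 36.4% of all protein-coding genes.

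The peaks most like those of the 10 genes by rank were found by the summed absolute difference of log2 ranks over the 3 replicates, among the 300 strongest peaks and leaving out the 10 themselves. CG3726 was closest to the peak of CG5611, with ranks of 34, 10 and 26 and a difference of 0.86. CG11050 was closest to tara, at 1.33, and CG14100 and Art3 to ph-p, at 1.48 and 1.71. CG13323, px and CG18549 were closest to CG9147, at 1.53, 1.94 and 2.37. Sox14 was closest to Chro, at 2.15, CenG1A to ph-p, at 2.26, and Adf1 to mRpL41, at 4.0.

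The choice of peaks leaves strong peaks outside. CG3726, the weakest of the 10, had a signal of 5443 at rank 18. Peaks over 1000 bp from any protein-coding start site that ranked above it and were not counted here were those of tara, with 5878 at rank 14, and Psc, with 5704 at rank 16. The next such peak below it was that of Tlk on X, with 5258 at rank 25. Peaks nearer to start sites also ranked above CG3726 and were not counted. They were mRpL41 with 9842 at rank 1, Chro with 8402 at rank 4 and ph-p with 6485 at rank 10. Further down were CG7601 with 5964 at rank 13, CG9147 with 5829 at rank 15 and CG5611 with 5631 at rank 17. The strongest peak of the conservative ranked list, at chr2L:480581-481377 near cbt, had a signal of 11888 and ranked 1, 1 and 2 in the replicates' own ranked lists. It overlapped no thresholded peak in any replicate and so was not open to the choice. Its −log10 IDR was 5.0, past the limit of 2.00, so it is 1 of 174 peaks that pass the limit in the conservative ranked list and are not in the thresholded list. The deposited README files name a further input for the thresholded lists whose content is not stated, and its part in the loss of these peaks was not tested. Of the 174 peaks, none lay within 15 kb of the 10 genes.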

How the data were processed

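Coordinates are on assembly dm6. Per the deposited README files, the lists of the whole series were derived from alignments of all 3 replicates and a control, and each replicate's list from its own alignment and the control. Neither label nor header names the peak caller or the aligner. The deposited lists give a signal value per peak, a summit offset in bp and, in the ranked lists, the −log10 of the irreproducible discovery rate (IDR), with a threshold of 2.00. The main list (conservative, replicates 1 and 2) had 10483 peaks on 7 arms. Its signal values come from the pool of all 3 replicates, so no replicate is independent of it. The deposited lists hold no read numbers, so depth is unknown.

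Genes and start sites came from Ensembl release 115 and sequence from RefSeq, both of the dm6 assembly. Nearest start sites, summits within 500 bp and within 15 kb, ranks and base composition were computed with Python 3.11.15, pandas 2.3.3 and numpy 2.4.6, after the code was tested on simulated data. Overlap means at least 1 shared bp. The 10 genes and the family lists were chosen with earlier results of these data known. Named are the 10 genes, genes sharing their summits, genes of the 20 strongest peaks, the family lists and the peak most alike by rank, and other genes are named only as the nearest to a summit described. With 1 group, no test was made.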

Additional observations from a re-analysis of the deposited data

How the results depend on the processing

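Of 97 alternatives, 84 left the value within 1.5 times a count or within 1 SD of a median, and 13 did not. With a promoter window of 250 bp, 1 promoter in place of 2 was shared with a neighbour, since the summit of CenG1A is 387 bp from mRpS23. At a global IDR of 0.001, 19 in place of 32 summits lay in gene bodies. Motif counts moved with the window, as more or fewer bases were searched. With 50 bp on each side, CGATA was in 1 window, GAGAG in 0 and TCAGT in 1. With 250 bp on each side, TATCGATA was in 2, CGATA in 5, CAGCTG in 1, CACGTG in 2 and TCAGT in 7. The median share of A and T was 62.7% with 100 bp on each side, 71.8% with 50 bp, 54.8% with 250 bp and 74.5% with 25 bp, a setting added after seeing the data. For each gene the mean rank over the replicates was taken, and the median of these means over the genes was 11. This differs from the medians within each replicate given above. Leaving out each replicate in turn gave 7.75 to 10. The median summit distance was then 3.5 to 4.0 bp, where all replicates gave 4.5. All 10 peaks were in every replicate under each alternative. Lists without replicate 1 or 2 share their signal values with the main list, so they change which peaks are listed and not the signals. No paired analysis was possible because there was 1 group. Depth is unknown, so a summit that is not listed may have been missed.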
